A study of Homo sapiens with 9 samples.

Results

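The mitosis genes are 41 genes whose products carry a cell from mitotic entry through chromosome segregation to cytokinesis, listed by name from what is known of the process. No measured value is in the rule, but the list was chosen with earlier results of these data known. A probeset with a gene symbol was found for 32 of them, each with a single probeset, among 14884 genes in all. The other 9, TPX2, UBE2C, CENPE, CENPF, NUF2, SPC24, SPC25, DLGAP5 and ANLN, had no expression values here. Those with a listed promoter enter only the promoter counts below. The study used ZR-75-1, an established line of estrogen receptor-positive, luminal breast cancer cells, and set out to restore miR-150-5p to it. The 3 groups had 3 arrays each: cells transfected with 50 nM miR-150-5p mimic, cells transfected with 50 nM of a non-specific negative control RNA, and mock cells given the transfection lipid with no RNA. All 9 samples received the lipid, Lipofectamine RNAiMAX, and RNA was taken at 48 h. All come from 1 cell line, and nothing says that the transfections of a group were separate experiments, so the p-values measure only the spread between these samples, which may be technical.

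Values are log2 intensities of Affymetrix Human Gene 2.0 ST arrays, so a difference of 1 is a doubling of signal. Array medians lay between 4.22 and 4.27 over all 53617 probesets. Of the luminal markers listed for a check of the cell type, 8 of 9 were measured, and all 8, KRT18, KRT19, GATA3 and ESR1 among them, lay above the median intensity of all genes, whereas the 3 fibroblast and 3 leukocyte markers measured lay below it. All 32 mitosis genes lay above that median as well, on values from 5.49 to 10.84 over the 9 arrays. In RNA of a whole culture, fewer dividing cells and less RNA per dividing cell cannot be told apart.

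Entry into mitosis is driven by the kinase CDK1 bound to cyclin B, which the CDC25 phosphatases activate. Kinases of the Polo, Aurora and NEK families then build the spindle, the checkpoint holds anaphase until every kinetochore is attached, and the anaphase-promoting complex with CDC20 then starts anaphase by marking cyclin B and securin for destruction. Transcripts of these genes rise together late in each cell cycle, under MYB-MuvB and FOXM1, and in quiescent cells the DREAM complex represses them through a promoter element called the cell cycle genes homology region, or CHR, often found near CCAAT boxes bound by NF-Y.

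These promoter elements are what the mitosis genes are best known to share, and the sequences below show them for genes the results turn on: CDC25C and HMMR with the lowest p-values against the negative control, KIF2C, which had a low p-value but no match, PLK1, the member with the lowest p-value against mock, and CCNB2 as a typical case. Each is the 150 bases before a RefSeq gene start in GRCh38.p14, 5′ to 3′ on the gene's strand, in lower case with matches to TTTGAA (the letters of the CHR) or CCAAT, on either strand, in capitals; neighbouring or overlapping matches form 1 run of capitals. CDC25C has 4 annotated starts, of which the one with both motifs is shown.
CDC25C, chr5:138331805-138331954, minus strand: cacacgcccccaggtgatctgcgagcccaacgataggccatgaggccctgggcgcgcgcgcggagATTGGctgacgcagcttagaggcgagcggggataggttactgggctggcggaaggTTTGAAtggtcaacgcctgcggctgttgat
HMMR, chr5:163460482-163460631, plus strand: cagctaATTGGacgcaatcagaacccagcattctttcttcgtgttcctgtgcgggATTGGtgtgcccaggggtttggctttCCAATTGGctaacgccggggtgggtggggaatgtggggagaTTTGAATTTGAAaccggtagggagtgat
KIF2C, chr1:44739687-44739836, plus strand: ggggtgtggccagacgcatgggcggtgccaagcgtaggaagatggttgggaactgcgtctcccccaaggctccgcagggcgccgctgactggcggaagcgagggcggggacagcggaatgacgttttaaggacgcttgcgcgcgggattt
PLK1, chr16:23678739-23678888, plus strand: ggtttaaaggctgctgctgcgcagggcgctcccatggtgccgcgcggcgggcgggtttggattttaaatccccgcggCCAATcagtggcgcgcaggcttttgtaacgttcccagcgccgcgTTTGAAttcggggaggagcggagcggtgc
CCNB2, chr15:59104996-59105145, plus strand: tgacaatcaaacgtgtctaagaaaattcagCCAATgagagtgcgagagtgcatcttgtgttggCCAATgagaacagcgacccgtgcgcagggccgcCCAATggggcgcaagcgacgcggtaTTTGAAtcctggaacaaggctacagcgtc

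Counted back from the start, TTTGAA began at position -30 in CDC25C, and CCAAT, on the opposite strand, at -85. PLK1 and CCNB2 each had TTTGAA at -29, and HMMR had 2 adjoining copies, at -28 and -22. Over the 250 bases before each start, TTTGAA was present for 20 of the 35 mitosis genes in the promoter table (57.1%), against 14.2% of 15843 protein-coding genes. CCAAT was present for 29 of 35 (82.9%), against 40.2%, and both motifs for 18 of 35 (51.4%), against 5.45%. A gene counted if any of its starts had a match. Among the 28 of these genes with expression values, the shares were 60.7% for TTTGAA, 89.3% for CCAAT and 57.1% for both. BIRC5, TTK, AURKA and FOXM1, which had expression values, were not in the promoter table. Neither was found for CENPE, KIF2C, NDC80 and NUF2. A match is only a match of letters and shows no binding.

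No mitosis gene passed the test between mimic and negative control RNA, the comparison at equal RNA dose. In limma's fit over all 14884 genes, with a Benjamini-Hochberg adjusted p below 0.05 as the threshold, 0 of 32 were called, where 0.551% of all genes were. At an unadjusted p below 0.05 there were 4 of 32 (12.5%), CDC25C, HMMR, AURKB and KIF2C, all lower in the mimic; the background is 12.6% of all genes, and 6.39% for lower genes alone. Among the 7442 genes above the median intensity, where all members lie, these shares were 16.9% and 9.23%. Of the 32, 25 had a negative log2 change (78.1%), against 46.5% of all genes and 50.5% of genes above the median intensity, and the median log2 change was -0.08, against 0.01 for all genes. The arrays of the groups did not overlap for 6 members, all lower in the mimic (CDK1, CDC25C, AURKB, CENPA, KIF2C and HMMR), or 18.8%, against 8.01% of all genes and 12.2% of genes above the median intensity. For no member did all mimic arrays lie above all negative control arrays, as they did for 8.42% of all genes and 11.5% of those above the median. When single arrays were left out, the median log2 change ran from -0.11 (without mimic replicate 3) to -0.02 (without mimic replicate 1). After quantile normalization it was -0.07.

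**Figure D1:**
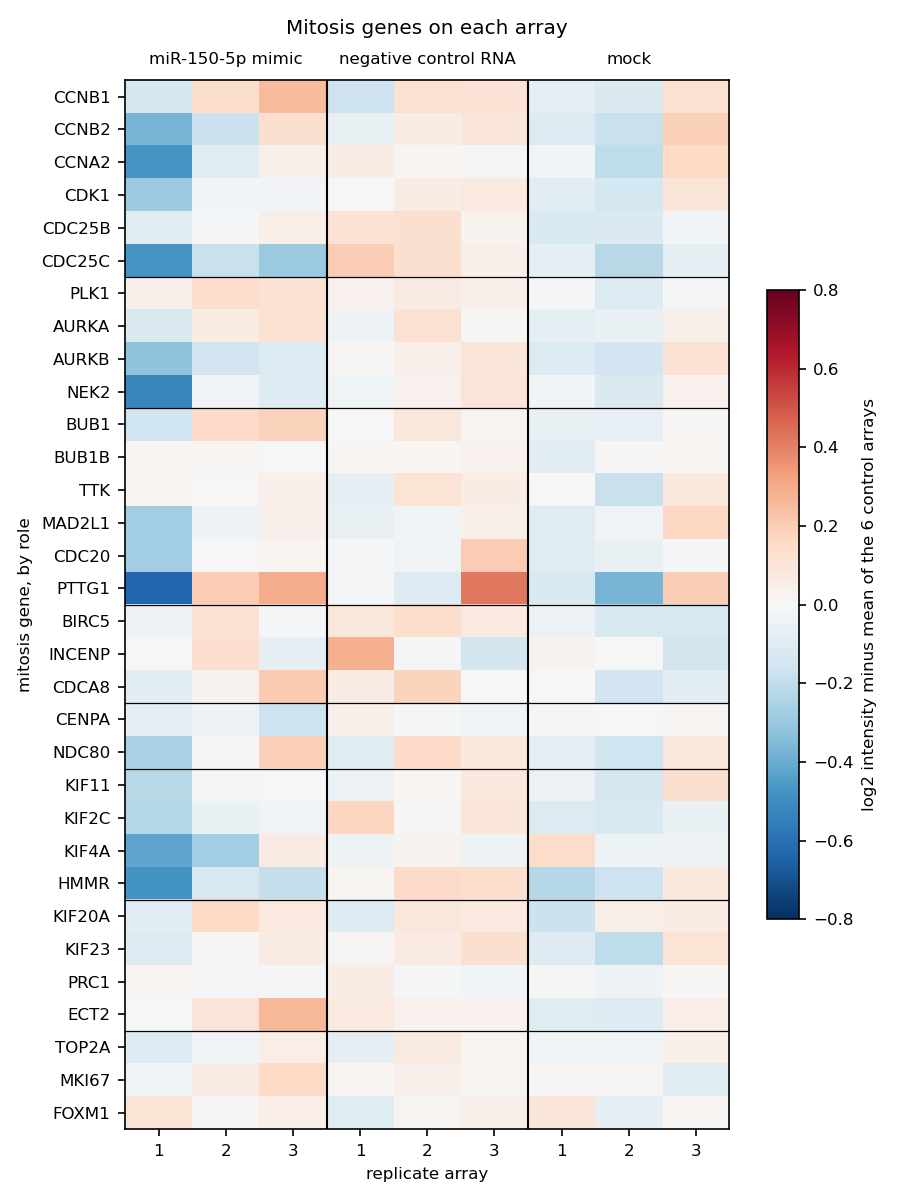
Log2 intensity of each of the 32 mitosis genes (rows, grouped by role) on each of the 9 arrays (columns: mimic, negative control and mock, replicates 1 to 3) minus the gene's mean over the 6 control arrays. Mimic replicate 1 is low for 27 of the 32 genes, and mock replicates 1 and 2 are low for 25 and 28, while mock replicate 3 is high for 22.

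The bounds on these changes were narrow for most members. The standard error of a log2 change had a median of 0.09 over the 32 genes, from 0.06 to 0.25 for PTTG1, and the half-width of the 95% interval a median of 0.20. For 29 of 32 members the interval of mimic minus negative control lay within a change of 1.5-fold in either direction (0.585 on the log2 scale). The 3 exceptions were CDC25C, HMMR and PTTG1. Against mock this held for 31 of 32, all but PTTG1.

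**Figure D2:**
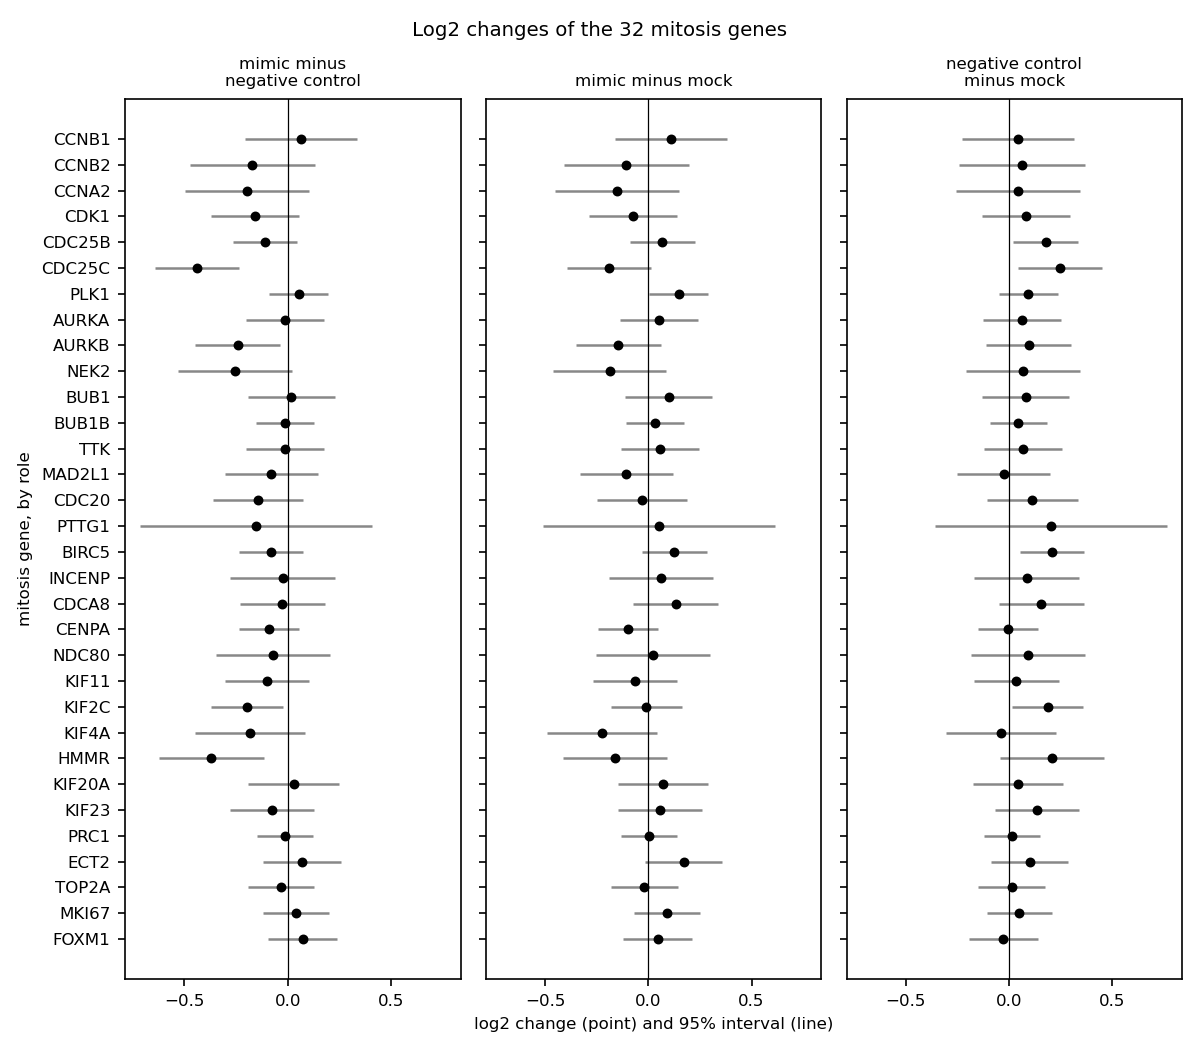
Log2 change (points) with its 95% interval from limma (lines) for the 32 mitosis genes, for mimic minus negative control, mimic minus mock and negative control minus mock. In the first panel 25 points lie below 0, in the second 14, and in the third 4.

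Cyclins, CDK1 and the CDC25 phosphatases, the engine of mitotic entry, held CDC25C, whose difference from the negative control was the widest of the 32 genes. CDC25C, the phosphatase that removes inhibitory phosphates from CDK1 at mitotic entry, had log2 intensities of 6.23, 6.52 and 6.40 in mimic, 6.90, 6.83 and 6.74 in negative control and 6.62, 6.48 and 6.63 in mock arrays. The 3 mimic arrays lay below all 3 negative control arrays but overlapped mock, and the negative control lay above mock. The log2 change was -0.44 ± 0.09 (SE) for mimic minus negative control, with a limma adjusted p = 0.0681. For mimic minus mock it was -0.19 ± 0.09, with an adjusted p = 0.499. Against mock it ran from -0.26 (without mimic replicate 2) to -0.11 (without mimic replicate 1) when single arrays were left out. When only the genes above the median intensity were tested, CDC25C passed against the negative control with an adjusted p = 0.0233; over all alternatives this p ran from 0.0233 to 0.222.

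CCNA2, cyclin A2, had 8.90, 9.29 and 9.41 in mimic, 9.43, 9.39 and 9.36 in negative control and 9.35, 9.17 and 9.53 in mock arrays. Mimic replicate 1 was the lowest of the 9, and the other mimic arrays lay within the range of the mock arrays. Its log2 change was -0.20 ± 0.13 (SE) against the negative control (adjusted p = 0.589) and -0.15 ± 0.13 against mock (adjusted p = 0.720). Against the negative control it was -0.05 without mimic replicate 1 and -0.30 without mimic replicate 3. Against mock it ran from -0.26 to -0.0027 when single arrays were left out, the last without mimic replicate 1. CDC25B, a second CDK1-activating phosphatase, had 8.82, 8.90 and 8.96 in mimic, 9.03, 9.04 and 8.94 in negative control and 8.79, 8.80 and 8.89 in mock arrays, so the negative control lay above every mock array while the mimic overlapped both. Of the 6 genes of this role, CCNB1, CCNB2 and CDK1 included, 5 had a negative change against the negative control, from -0.44 to 0.07, and 4 against mock, from -0.19 to 0.11.

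The mitotic kinases had changes of both signs. AURKB, the kinase of the chromosomal passenger complex, had 8.06, 8.23 and 8.27 in mimic, 8.39, 8.42 and 8.48 in negative control and 8.27, 8.23 and 8.50 in mock arrays. The mimic lay below the negative control on every array and overlapped mock. The log2 change was -0.24 ± 0.09 (SE) against the negative control, with an adjusted p = 0.322, and -0.15 ± 0.09 against mock (adjusted p = 0.612). The change against mock was -0.08 without mimic replicate 1, -0.06 without mock replicate 3 and -0.09 with array weights. It was -0.20 without mock replicate 2 and -0.19 without mimic replicate 3 or after quantile normalization.

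PLK1, the Polo kinase that acts in mitotic entry, spindle assembly and cytokinesis, had 10.58, 10.68 and 10.65 in mimic, 10.57, 10.60 and 10.58 in negative control and 10.52, 10.43 and 10.52 in mock arrays. All mimic and all negative control arrays lay above all mock arrays, and mimic and negative control overlapped. The log2 change was 0.15 ± 0.06 (SE) against mock, with an adjusted p = 0.454, and 0.05 ± 0.06 against the negative control (adjusted p = 0.777). The other kinases measured were AURKA, the spindle-pole Aurora kinase, and NEK2, which separates the centrosomes. Over the 4 kinases the log2 change ran from -0.25 to 0.05 against the negative control and from -0.19 to 0.15 against mock.

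Genes of the spindle checkpoint and of anaphase had small changes, negative for 5 of 6 against the negative control and for 2 of 6 against mock. CDC20, the activator of the anaphase-promoting complex, had 7.87, 8.15 and 8.16 in mimic, 8.14, 8.12 and 8.35 in negative control and 8.05, 8.09 and 8.13 in mock arrays. Only mimic replicate 1 lay outside the range of the control arrays. Its log2 change against the negative control was -0.14 ± 0.10 (SE; adjusted p = 0.588). It was -0.05 without mimic replicate 1, -0.07 without negative control replicate 3 and -0.19 without mimic replicate 2 or 3.

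PTTG1, securin, which holds the protease separase inactive until anaphase, varied most of all 32 genes. It had 5.49, 6.33 and 6.42 in mimic, 6.11, 6.02 and 6.55 in negative control and 6.0, 5.75 and 6.32 in mock arrays. Its range over the 9 arrays was 1.07, and its SD within the mimic group was 0.51. The log2 change against the negative control was -0.15 ± 0.25 (SE; adjusted p = 0.846), and its sign turned without mimic replicate 1 (0.14) or negative control replicate 3 (0.01). BUB1B, MAD2L1, TTK and BUB1, which sense unattached kinetochores, completed the 6 genes of this role. Over the 6, the change ran from -0.15 to 0.02 against the negative control and from -0.11 to 0.10 against mock.

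The chromosomal passenger complex positions Aurora B at centromeres and later at the midzone. BIRC5, survivin, one of its subunits, had 7.59, 7.76 and 7.63 in mimic, 7.73, 7.78 and 7.72 in negative control and 7.59, 7.51 and 7.51 in mock arrays. The negative control lay above mock on every array. The mimic lay above mock too, with mimic replicate 1 and mock replicate 1 equal to 2 decimals, and overlapped the negative control. The log2 change was -0.08 ± 0.07 (SE) against the negative control (adjusted p = 0.678), 0.13 ± 0.07 against mock (adjusted p = 0.558), and 0.21 ± 0.07 for negative control minus mock (adjusted p = 0.976). INCENP, the scaffold, and CDCA8, borealin, had the same signs as BIRC5: all 3 subunits were negative against the negative control, from -0.08 to -0.02, and positive against mock, from 0.06 to 0.13.

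At the kinetochore only CENPA and NDC80 were measured of 7 genes listed. CENPA, the histone H3 variant that marks centromeres, had 7.55, 7.59 and 7.46 in mimic, 7.67, 7.61 and 7.60 in negative control and 7.61, 7.63 and 7.65 in mock arrays. All mimic arrays lay below all 6 control arrays, by little: the log2 change was -0.09 ± 0.06 (SE) against the negative control (adjusted p = 0.601) and -0.10 ± 0.06 against mock (adjusted p = 0.632). Without mimic replicate 3 the changes were -0.05 and -0.06, and without mimic replicate 2 they were -0.12 and -0.13.

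The 4 spindle motors and spindle proteins were all negative against both controls. HMMR, a spindle-assembly protein also known as the hyaluronan receptor RHAMM, had 8.18, 8.53 and 8.47 in mimic, 8.68, 8.81 and 8.80 in negative control and 8.43, 8.49 and 8.74 in mock arrays. The mimic lay below the negative control on every array and overlapped mock. The log2 change was -0.37 ± 0.11 (SE) against the negative control, with an adjusted p = 0.219, and -0.16 ± 0.11 against mock (adjusted p = 0.650). The change against mock was -0.05 without mimic replicate 1 or with array weights, and -0.07 without mock replicate 3. It was -0.23 without mimic replicate 2, -0.22 without mock replicate 1 and -0.20 after quantile normalization.

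KIF2C, a kinesin that takes microtubules apart at centromeres, had 8.20, 8.38 and 8.40 in mimic, 8.60, 8.44 and 8.53 in negative control and 8.32, 8.31 and 8.38 in mock arrays. The negative control lay above both other groups, and mimic and mock overlapped. The log2 change was -0.20 ± 0.08 (SE) against the negative control (adjusted p = 0.338), -0.01 ± 0.08 against mock (adjusted p = 0.974), and 0.19 ± 0.08 for negative control minus mock (adjusted p = 0.976). With KIF11, the motor that pushes the spindle poles apart, and the chromokinesin KIF4A, the changes of this role ran from -0.37 to -0.10 against the negative control and from -0.22 to -0.01 against mock.

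Midzone and cytokinesis genes stayed near 0 against the negative control. KIF23, the motor subunit of centralspindlin, had 9.90, 10.01 and 10.07 in mimic, 10.01, 10.07 and 10.13 in negative control and 9.90, 9.80 and 10.11 in mock arrays, and all 3 groups overlapped. Its log2 change was -0.08 ± 0.09 (SE) against the negative control (adjusted p = 0.770). It was -0.03 without mimic replicate 1 and -0.12 without mimic replicate 3. With the kinesin KIF20A, the microtubule bundler PRC1 and the cytokinesis regulator ECT2, the 4 genes ran from -0.08 to 0.07 against the negative control and from 0.01 to 0.17 against mock.

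FOXM1, the transcription factor that drives late cell cycle genes, had 9.44, 9.34 and 9.38 in mimic, 9.23, 9.35 and 9.37 in negative control and 9.43, 9.25 and 9.35 in mock arrays. The groups overlapped, and the log2 change was 0.07 ± 0.07 (SE) against the negative control (adjusted p = 0.733) and 0.04 ± 0.07 against mock (adjusted p = 0.858). The topoisomerase TOP2A and the proliferation marker MKI67 completed this role, and its 3 genes ran from -0.03 to 0.07 against the negative control and from -0.02 to 0.09 against mock.

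**Figure D3:**
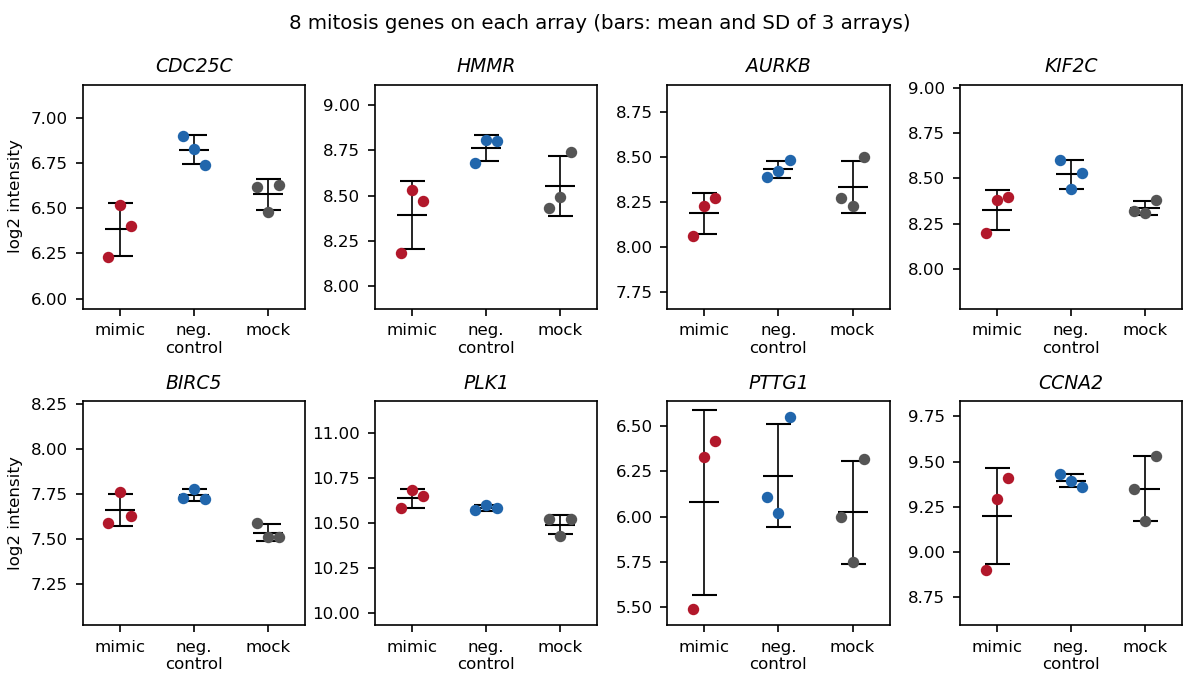
Log2 intensity of 8 mitosis genes on each array (points), with the mean and SD of the 3 arrays of a group (bars), over equal spans of the vertical axis. CDC25C, HMMR, AURKB and KIF2C are lower in mimic than in negative control on every array, and PTTG1 has the widest spread within groups.

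The comparison of mimic with mock asked how mimic cells differ from cells given lipid alone. It shares its 3 mimic arrays with the comparison above, so the values are only set side by side. In limma's fit 0 of 32 members passed, where 0.302% of all genes did. At an unadjusted p below 0.05 there was 1 of 32, PLK1 (3.12%), which was higher in mimic, where 10.7% of all genes were under it and 5.87% were higher ones (14.2% and 8.51% of genes above the median intensity). The median log2 change was 0.03, against 0.01 for all genes, with 18 positive (56.2%, against 53.9% of all genes) and 14 negative. The lowest adjusted p of a member was 0.454. Arrays did not overlap for 2 members that were higher in mimic, PLK1 and BIRC5 (6.25%, against 7.21% of all genes and 10.7% of those above the median), and for 1 that was lower, CENPA (3.12%, against 5.44% and 6.91%). After quantile normalization the median turned to -0.01, and it ran from -0.02 to 0.05 when single arrays were left out.

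Negative control against mock set a transfected RNA of no intended target beside lipid alone. In limma's fit 0 of 32 members passed, as did 0% of all 14884 genes, and all members had an adjusted p of 0.976 or above. At an unadjusted p below 0.05 there were 4 of 32 (12.5%), CDC25C, CDC25B, BIRC5 and KIF2C, all higher in the negative control, where 4.18% of all genes were, and 2.14% were higher ones (3.32% and 2.27% of genes above the median intensity). Of the 32, 28 had a positive change (87.5%), against 52.8% of all genes and 62.7% of genes above the median intensity. Arrays did not overlap for 6 members, all higher in the negative control (18.8%, against 4.77% of all genes and 6.79% of those above the median): CDC25B, CDC25C, PLK1, BIRC5, KIF2C and MKI67. The median log2 change was 0.07, against 0.01 for all genes, and 0.04 after quantile normalization; it ran from 0.05 to 0.12 when single arrays were left out. CDC25C, for example, differed by 0.25 ± 0.09 (SE) between the controls (adjusted p = 0.976). Its change in mimic was -0.44 against the negative control and -0.19 against mock, of the same sign but unlike size.

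Replicate arrays of one group differed in the mitosis genes as a whole. The mean over the 32 genes, each as the deviation from its own mean over the 6 control arrays, was -0.19, 0.00 and 0.04 in mimic replicates 1, 2 and 3, 0.01, 0.06 and 0.06 in the negative control and -0.06, -0.11 and 0.04 in mock. Mimic replicate 1 was the lowest array, with 27 of 32 genes below their control mean and deviations from -0.64 to 0.11. The other mimic arrays lay among the controls, and mock replicates 2 and 3 lay farther apart than the means of the mimic and negative control groups (-0.05 ± 0.13 and 0.04 ± 0.03, SD, n = 3 each; mock -0.04 ± 0.07).

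Bright genes in general varied on the same arrays, by less. All genes above the median intensity had mean deviations of -0.04, 0.01 and 0.04 in mimic, 0.01, 0.01 and 0.02 in negative control and -0.01, -0.03 and 0.00 in mock arrays, with the lowest values on mimic replicate 1 and mock replicate 2, the arrays with the lowest mitosis means. The SD over all genes, a measure of an array's dynamic range, was 2.034 on mimic replicate 1 and 2.029 on mock replicate 2. It was nearly as low on mock replicate 1 (2.036), and reached 2.073 on negative control replicate 3. After quantile normalization, which gives all arrays 1 distribution, the mitosis means were -0.17, -0.02 and -0.02 in mimic, 0.02, 0.04 and 0.03 in negative control and -0.04, -0.07 and 0.02 in mock arrays. All 3 mimic arrays then lay below all 3 negative control arrays, and mimic replicates 2 and 3 lay above mock replicates 1 and 2. The part of dynamic range in the deposited values was not tested beyond this.

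**Figure D4:**
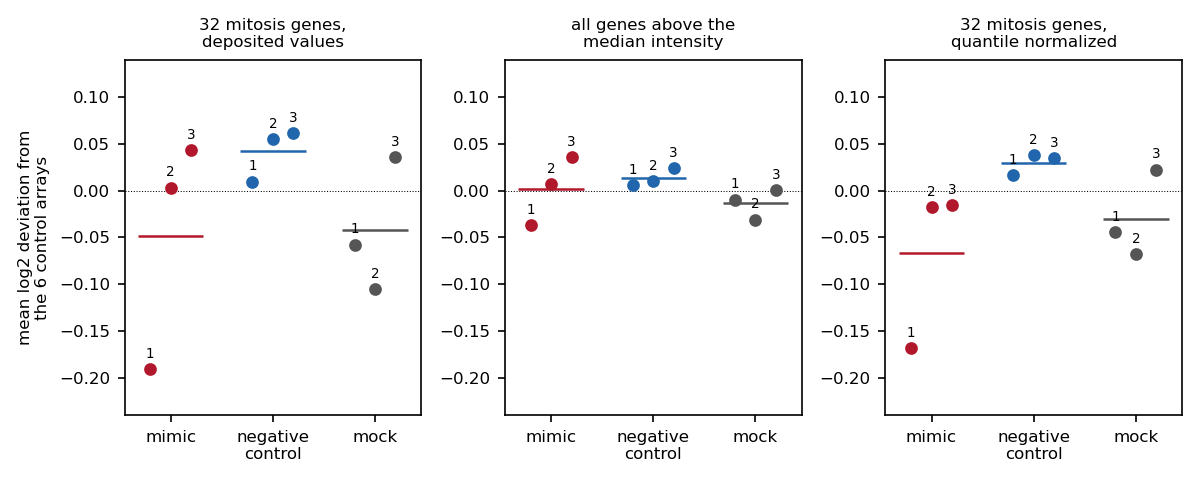
Mean deviation from the 6 control arrays (log2) on each array, numbered by replicate, with the group mean as a line: the 32 mitosis genes as deposited (left), all genes above the median intensity (middle) and the 32 mitosis genes after quantile normalization (right). Mimic replicate 1 is the lowest array in each panel.

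The members also varied together within groups. Each gene's deviations from its group means over the 9 arrays were correlated with the mean deviation of the other members. The median r over the 32 genes was 0.81, and 24 (75%) exceeded 0.5, against a median of 0.26 and 35.6% for the 7410 other genes above the median intensity. The trait was shared by related lists, set against the same mean of the mitosis genes. The 35 other late cell cycle genes had a median r of 0.74 with 71.4% above 0.5. For 24 other kinetochore and centromere genes these were 0.66 and 62.5%, and for 14 cohesin genes 0.60 and 57.1%. For 24 DNA replication genes they were 0.60 and 54.2%, and for 18 genes of the anaphase-promoting complex 0.54 and 50%. These points share their arrays and 6 degrees of freedom, so they are a description. CDK1 (0.98), CCNA2 (0.94), KIF11 (0.93) and BUB1 (0.93) followed the others closely. INCENP (-0.35), CENPA (-0.27), PRC1 (-0.20) and FOXM1 (-0.08) did not, and PRC1 and CENPA also had small SDs within groups (0.03 and 0.05). After quantile normalization the median was 0.69 for the members and -0.01 for the other genes above the median. It was 0.54 for the other late cell cycle genes and 0.49 for the other kinetochore and centromere genes. For DNA replication, anaphase-promoting complex and cohesin genes it was 0.40, 0.35 and 0.24.

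Other genes of cell division, on lists chosen by function, held 1 gene that passed. STAG2, a cohesin subunit, had 8.76, 8.75 and 8.81 in mimic, 8.18, 8.26 and 8.37 in negative control and 8.51, 8.50 and 8.48 in mock arrays; the groups did not overlap, with mock between the others. It rose by 0.50 ± 0.07 (SE) against the negative control, with a limma adjusted p = 0.0194, and its change was 0.28 ± 0.07 against mock (adjusted p = 0.174). The call was lost when any 1 of the 6 arrays compared was left out, with adjusted p from 0.0583 to 0.0885, and when only the 2 groups compared were fitted (adjusted p = 0.0789). The change itself ran from 0.46 to 0.55 when these arrays were left out. STAG2 kept its call after quantile normalization and with array weights. This was the only call among 14 genes of cohesin and its regulators (median change 0.03 against the negative control).

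Of 18 genes of the anaphase-promoting complex 0 passed, with medians of -0.04 against the negative control and 0.04 against mock; ANAPC15, a subunit, had the lowest p, with changes of -0.40 ± 0.08 (SE; adjusted p = 0.0781) and -0.36 ± 0.08 (adjusted p = 0.157). Of 11 DREAM and MYB-MuvB genes 0 passed, with medians of -0.02 and 0.02, TFDP2, an E2F partner, being lowest in p (-0.26 ± 0.09 against the negative control, adjusted p = 0.249). Of 24 other kinetochore and centromere genes 0 passed, with medians of -0.08 and 0.05; MIS18A, which helps to load CENPA, differed by -0.32 ± 0.08 from mock (adjusted p = 0.181). Of 35 other late cell cycle genes 0 passed, with medians of -0.03 and 0.03; KIF18B, a kinesin, differed by 0.30 ± 0.08 from mock (adjusted p = 0.233). The 2 condensin subunits measured and 5 CDK inhibitors and genes of cell cycle exit gave 0 calls. CDKN2A, a CDK4 inhibitor gene, had the lowest p of the 5 (-0.48 ± 0.13 against the negative control, adjusted p = 0.173).

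DNA replication genes, the closest neighbours in the cell cycle, were also lowest on mimic replicate 1. They differed from the mitosis genes in the level of the mimic arrays. Of 24 measured, 0 passed against either control. Their median log2 change was -0.12 against the negative control and -0.10 against mock, where the mitosis genes had -0.08 and 0.03. Their mean deviations were -0.19, -0.11 and -0.08 in mimic, 0.03, -0.01 and 0.04 in negative control and -0.07, -0.06 and 0.06 in mock arrays. All 3 mimic arrays lay below all 6 control arrays here, while for the mitosis genes only mimic replicate 1 did. The difference between the lists was not tested. GINS1, a subunit of the replicative helicase, had the lowest p of its list against the negative control (-0.41 ± 0.09, adjusted p = 0.0781).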

How the data were processed

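The deposited table holds 1 log2 value for each of 53617 probesets on each of 9 arrays. The authors' method was RMA, per the submitters' processing notes; its version, the probe annotation used and any genome build were not given in the sources used here. With no detection call in the table, precision is limited by the number of arrays. Of the probesets, 16098 carry 1 gene symbol in the platform's annotation, 0 several, and 37519 are unnamed here. The brightest probeset by mean stood for each of 779 genes with several, which gave 14884 genes.

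Values were fitted in R 4.3.3 with limma 3.58.1 (lmFit, eBayes), 1 mean per group over all 9 arrays and 6 residual degrees of freedom, after a test on simulated data. P-values are two-sided, adjusted by Benjamini-Hochberg over all genes, threshold 0.05. With 3 arrays a group, the smallest p that exact permutation allows is 0.1, so it was not run.

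The members and lists were chosen with earlier results of these data known. Values on every array are given for CDC25C, BIRC5, the member with the lowest p against the negative control in each role and the 3 with the widest range over the arrays; CDC25B, PLK1 and KIF2C were added after their values were seen. Other lists give up to 2 passing genes or the one with the lowest p. Neither labels nor table name a batch. The alternatives were quantile normalization, median centring, an intensity filter, probeset means, fits on 2 groups, a trended robust spread, array weights, the replicate number as a block, and leaving out each array. Promoter sequences are RefSeq's.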

Additional observations from a re-analysis of the deposited data

How the results depend on the processing

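No mitosis gene passed in any comparison under any alternative but 1: with only the genes above the median intensity tested, 1 passed against the negative control (CDC25C). There fewer genes were tested, and limma's fit was also made anew on those genes alone. The count of all genes called moved more. Against the negative control it was 82, and became 263 with that filter, 169 with the trended robust spread, 268 with array weights, 8 with only the 2 groups compared and 7 to 121 without single arrays. Against mock it was 45 (25 higher, 20 lower), and became 102, 1 with only the 2 groups and 1 to 10 without single arrays; quantile normalization gave 17 higher and 22 lower. The cause was not tested. With the replicate number as a block the counts were 16 and 3, and the block made no mitosis gene pass. Nothing says whether same-numbered arrays were handled together. Their deviations correlated by -0.0606 to 0.133, most of them above 0. Differently numbered arrays of 2 groups correlated by -0.177 to 0.161, most of them below 0. Deviations from a group's mean sum to 0, so this sign largely follows from that of the same-numbered arrays. A shared effect of the number was not tested. With the block, adjusted p against the negative control was 0.0542 for STAG2 and 0.0597 for ESR1, and 0.104 for ESR1 against mock. The 9 array means of the mitosis genes each moved by less than the SD between replicates (0.0851).

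Of 630 changes of 15 named genes under the alternatives, 581 kept sign and side of the threshold, 25 lost a call (STAG2 and ESR1), 1 gained one (CDC25C) and 23 turned sign. Only STAG2 and ESR1 had a call in the main fit, so the other genes had none to lose. Against mock, CDC20 turned to 0.02 and KIF2C to 0.0226 with array weights, and FOXM1 to -0.0006 after quantile normalization; without single arrays they ran from -0.0812 to 0.0639, -0.045 to 0.052 and -0.0009 to 0.0886, KIF23 from -0.0113 to 0.1408 and PTTG1 from -0.12 to 0.3456. PTTG1 ran from -0.3213 to 0.1442 against the negative control. Between the controls ESR1 turned to 0.0141 with array weights, and the ranges were -0.0582 to 0.0208 for ESR1, -0.0258 to 0.0059 for CENPA, -0.0741 to 0.0154 for FOXM1 and -0.0467 to 0.1337 for CCNA2.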

Other observations

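Among 6814 genes above the median intensity and outside the lists, the 10 whose deviations within groups were most like the mean of the mitosis genes had r from 0.98 to 0.99 over the 9 arrays. They were RBBP5, a subunit of histone methyltransferase complexes, ATR, the kinase of the replication checkpoint, RNF4, a SUMO-targeted ubiquitin ligase, NOL10, GPR27, SIMC1, WLS, the Wnt sorting receptor, MAP4K4, DHRS2 and PUS7. None of the 10 passed limma's test in any of the 3 comparisons. The largest differences between mimic and negative control were those of MAP4K4 (-0.53 ± 0.16, SE; adjusted p = 0.212) and DHRS2 (-0.48 ± 0.12; adjusted p = 0.115), and RBBP5, with r = 0.99, differed by -0.01 ± 0.10. After quantile normalization r was -0.13 for RNF4 and between 0.95 and 0.98 for the other 9. With 6 degrees of freedom and 6814 genes ranked, values this high are a description of these arrays.

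ESR1, the estrogen receptor gene, was the 1 luminal marker of 8 that passed against either control: it rose by 0.46 ± 0.07 (SE; adjusted p = 0.0295) against the negative control and by 0.45 ± 0.07 (0.0406) against mock, on the same arrays on which no mitosis gene passed. Both calls were lost when any 1 of the arrays compared was left out, with adjusted p from 0.0622 to 0.119 against the negative control and from 0.0786 to 0.178 against mock. They were also lost when only the 2 groups compared were fitted (adjusted p = 0.0789 and 0.172), and the call against mock was lost after quantile normalization (adjusted p = 0.0555). The change itself ran from 0.43 to 0.51 against the negative control and from 0.42 to 0.48 against mock without single arrays. Both calls were kept with the intensity filter, the trended robust spread and array weights.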
